A study of Mus musculus with 2 samples.

Results

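The genes described here encode the proteins of the cytosolic ribosome. They were the genes whose array annotation gave a single symbol made of Rpl or Rps and a number, with an optional a or x, together with Rplp0, Rplp2 and Rpsa. Pseudogenes, the kinases named after Rps6, the close paralogues Rpl39l, Rpl22l1, Rpl3l and Rps27l and the genes Rpl39 and Rpl22 were left out. This gave 40 genes with 90 probe sets, of 18193 genes and 45101 probe sets in all, and they divided into 20 genes of the large subunit and 20 of the small subunit. A further 109 probe sets named such a gene together with other symbols and could not be given to 1 gene.

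RNA came from cultured B-lymphoma cells that carried the Eµ-Myc transgene, which places Myc under the immunoglobulin heavy chain enhancer and drives it in the B lineage. One array held cells labelled Cdk4+/+:Eµ-Myc and the other cells labelled Cdk4-/-:Eµ-Myc, both from lymph nodes of mice, and both groups carried the transgene. Age, sex and the number of mice behind each culture are not given in the sources used here. Each group held 1 array, so no difference below has a replicate, a standard error or a test, and precision is limited by having so few arrays. The probe sets of the targeted gene went against the labels, since the 3 Cdk4 probe sets read 1.19, 1.18 and 3.71 on the array labelled wild type but 4945, 4506 and 6958 on the other one, labelled null. Directions below follow the labels as given, as the array labelled null minus that labelled wild type; if the labels were swapped, every sign would change.

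Of the B-lineage markers, 7 were on the array, all 7 above the floor of 62.2 (the median intensity) on both arrays, and their summed intensity was 29572 for the array labelled wild type against 34487 for that labelled null. The 7 macrophage markers were all higher on the array labelled null, with 4 above the floor on both arrays and a summed intensity of 399 against 2274, and C1qa read 1.27 against 139. The 7 stromal and endothelial markers summed to 910 against 2104, and they did not all go one way. Col1a1 read 3.19 against 150, and Col1a2, Col3a1 and Sparc were also higher on the array labelled null. Pecam1 read 695 against 777, Cdh5 68.2 against 20.2 and Pdgfrb, below the floor on both arrays, 19.1 against 8.04. Of the 5 T cell markers 4 were below the floor on both arrays, as were all 3 erythroid markers. The part of these other cells in the results was not tested. In a bulk sample, fewer cells of a type and less RNA per cell cannot be told apart.

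A ribosome joins a small subunit, which reads the messenger RNA, to a large subunit, which forms the peptide bonds. Each subunit holds ribosomal RNA and 1 copy of most of its proteins, so the proteins are needed in matched amounts. Myc is a known driver of ribosome production, and the ribosomal protein genes are among the most active genes of growing B cells. Their transcripts start with a cytosine followed by a run of pyrimidines, the terminal oligopyrimidine or TOP motif, through which the mTOR pathway and the RNA-binding protein Larp1 control their translation.

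RefSeq sequence around the annotated start, on the mouse assembly GRCm38.p6, was found for 35 of the 40 genes. The TOP-like strings searched on the transcript strand were CTTTC together with CTTTT, then CTTCC together with CTCTT, and finally CCTTT, some of which overlap each other. Of the 35 genes, 6 (17.1%) held one exactly at the annotated start base, against 1.24% of the 7745 genes that had such a sequence and passed the intensity floor on each array. The windows of these 6 genes are shown because the start of the transcript is what the class is known for, and that of Rpl27a because it had the lowest difference of the 39 measured genes. Each runs from 10 bases before the start to 20 bases from it, in the direction of transcription, with the matched strings in capitals:
Rpl35, chr2:39005112-39005141, minus strand: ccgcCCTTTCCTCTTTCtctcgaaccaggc
Rpl38, chr11:114668570-114668599, plus strand: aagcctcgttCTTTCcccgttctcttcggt
Rplp2, chr7:141447641-141447670, plus strand: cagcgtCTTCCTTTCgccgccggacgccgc
Rps6, chr4:86857348-86857377, minus strand: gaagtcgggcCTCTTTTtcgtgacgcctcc
Rps10, chr17:27635225-27635254, minus strand: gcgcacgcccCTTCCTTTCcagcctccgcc
Rps27, chr3:90213629-90213658, minus strand: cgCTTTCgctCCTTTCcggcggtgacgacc
Rpl27a, chr7:109519185-109519214, plus strand: cgtgagctcctcCCTTTTcCCTTTCtgcca

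With strings counted that started within 10 bases on either side of the annotated start, 16 of the 35 genes (45.7%) held one, against 17.1% of the 7745 genes. Over the 300 bases from 250 before the start to 50 after it, on both strands, 17 of the 35 (48.6%) held CCGGAAG, the core bound by ETS factors such as Gabpa, against 23.4% of the 7745 genes. AAGATGG, part of the site of Yy1, was in 6 (17.1%) against 9.04%, and CACGTG, the E-box bound by Myc with Max, in 4 (11.4%) against 12.8%. The 7745 genes include the ribosomal protein genes themselves. The 16 genes with a TOP-like string near the start had a median log2 difference of -0.39, and the 18 measured genes without one had -0.39. The split follows annotated starts, and the class is known for TOP messages. Genes without a listed string there are thus not known to lack the motif. The split therefore cannot show whether the motif matters for the differences. For CCGGAAG the medians were -0.37 over 17 genes with it and -0.40 over 17 measured genes without it.

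Intensities were MAS5 signals on a linear scale, and both arrays were brought to 1 common mean, computed without the highest and lowest 2% of probe sets. The floor was the median intensity of both arrays, and each gene was represented by its brightest probe set, by mean log2 intensity. Of the 40 genes, 39 were above the floor on both arrays. The exception was Rps16, whose single probe set read 0.57 and 0.73, so it has no fold. Of the 39, 32 read above 10000 on both arrays, and 32 were in the top 1% of probe sets of each array. Brightness also depends on the probe, so intensities are compared between arrays and not between genes.

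Under trimmed-mean scaling most ribosomal protein genes read lower on the array labelled null, by less than 2-fold, and this did not hold under quantile scaling. The median log2 difference of the 39 genes was -0.38, and 36 of them were below 0, against 50.0% of all 9418 genes that passed the floor on each array, whose median was 0.00. None of the 39 was lower or higher by 2-fold, against 3.27% and 4.26% of all genes. A smaller step, the spread of 0.31 between probe sets of a gene described below, was chosen after the values were seen. It was passed by 29 of the 39 as lower, against 22.3% of all genes, and by 1 as higher, against 23.4%. With quantile scaling, which gives both arrays the same distribution of intensities, the median was 0.02 and 15 of the 39 were below 0, against 49.8% of all genes. There 3 genes were lower and 1 was higher by more than 0.31, against 21.9% and 22.3% of all genes. One gene, Rpl27a, passed 2-fold there as lower, against 3.48% of all genes, and 0 as higher, against 4.14%.

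**Figure D1:**
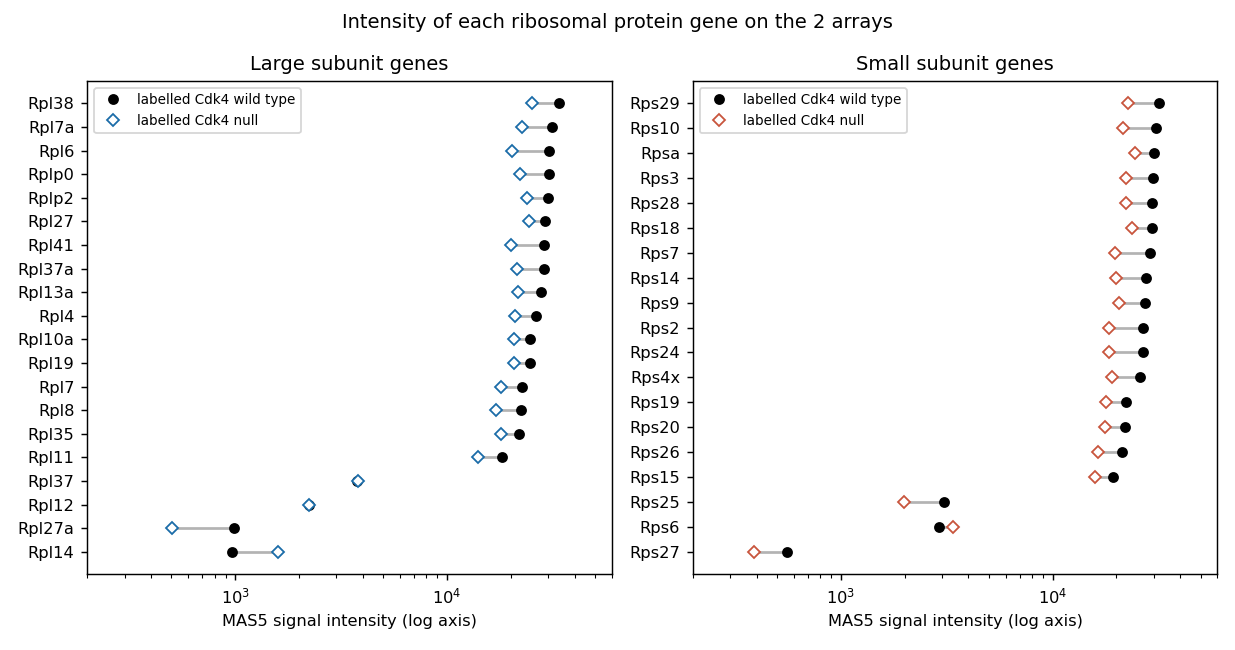
Signal intensity of the 39 measured ribosomal protein genes on a log axis, on the array labelled Cdk4 wild type (filled circles) and the array labelled Cdk4 null (open diamonds), 1 array each, with the large subunit on the left and the small subunit on the right. All 32 genes above 10000 were dimmer on the array labelled null, and the 7 others differed in both directions.

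The 2 arrays differed in their brightest signals, where most ribosomal protein genes lay. The 50th percentile of intensities was 62.6 against 61.7, with the array labelled wild type given first, and the 95th was 3605 and 3598. At the 99th percentile the values were 11978 and 10402, and the highest values were 35373 and 25741, a log2 difference of -0.46. Among the 942 brightest of the 9418 genes were 32 of the 39 ribosomal protein genes, and those 942 had a median log2 difference of -0.14 under trimmed-mean scaling and 0.02 under quantile scaling. The 178 other genes above 10000 on both arrays, with all Rpl and Rps symbols left out, had a median of -0.22, and 161 of them were below 0. The 32 ribosomal protein genes above 10000 had a median of -0.39 and all 32 were below 0. Beta-actin, Actb, a cytoskeletal gene of no ribosomal role, read 28481 against 19927, at -0.52, and -0.08 under quantile scaling. It was the lowest of the 6 housekeeping genes listed. Among the others above 10000 on both arrays, Pgk1 read 15420 against 16346, at 0.08, and B2m 13061 against 12801, at -0.03. Under quantile scaling Pgk1 and B2m stood at 0.42 and 0.23.

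A loess curve of the difference on mean log2 intensity, fitted on all 9418 genes and subtracted, left the 39 ribosomal protein genes at a median of -0.08, with 28 below 0, against 49.6% of all genes. The 178 other bright genes were left at 0.01, with 84 below 0. The direction of the ribosomal protein genes' median thus differed between quantile scaling and the other scalings, and its size was smaller after loess than under trimmed-mean scaling. The spread between probe sets of a gene was taken as the SD of a single probe set's log2 difference, estimated from the gap within the brightest pair of each gene. The gap between a pair is wider than this SD. It was 0.31 over 3082 genes, with probe sets of types that can match more than 1 transcript left out. For the 14 ribosomal protein genes with at least a pair of probe sets above 10000 it was 0.13, and for the 17 with more than 1 measured probe set of any brightness it was 0.66. The value of 0.66 includes Rps9, whose brightest pair stood at -0.41 and -4.05. The probe sets of no other gene of the 17 spanned more than 1.07, so 0.66 does not describe a typical gene. This spread measures disagreement of probe sets, and says nothing of how cultures or tumours vary.

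**Figure D2:**
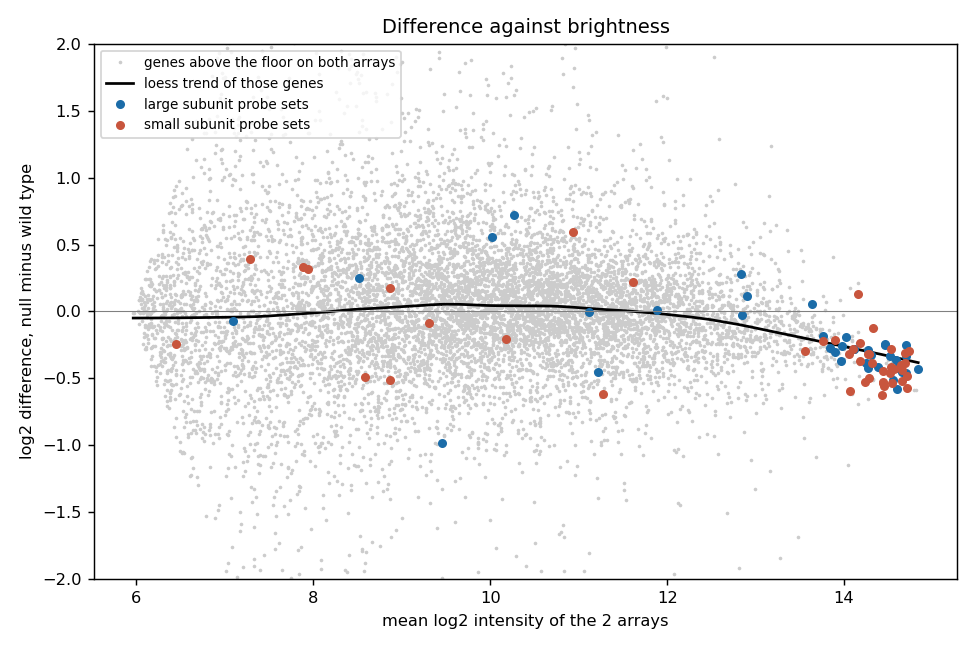
Log2 difference of the array labelled null minus the array labelled wild type (vertical axis) against mean log2 intensity of both arrays (horizontal axis), for all genes measured on each array (grey), their loess trend (black) and each ribosomal protein probe set past the floor on each array (blue, large subunit; red, small subunit). Most ribosomal protein probe sets lie at the bright end, where the trend falls below 0; points beyond 2 on the vertical axis are not drawn, among them an Rps9 probe set at -4.05.

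In the large subunit, 18 of 20 measured genes were below 0 under trimmed-mean scaling. The stalk that recruits the elongation factors was represented by its scaffold Rplp0 at 30208 against 22037, a log2 difference of -0.46, and by the acidic protein Rplp2 at 29847 against 23743, at -0.33. Rpl12, which sits at the base of the stalk, read 2229 against 2226, at -0.002. Rplp0 and Rplp2 were thus lower on the array labelled null on this scale, but they stood at 0.02 and 0.14 under quantile scaling, while Rpl12 stayed near 0 at -0.03. Rpl11, which can bind the ubiquitin ligase Mdm2 and so stabilise p53 when ribosome assembly fails, read 18120 against 14039, at -0.37, and -0.02 under quantile scaling.

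Around the tunnel through which the new peptide leaves, Rpl4, which lines it, read 26438 against 20945, at -0.34. Rpl19 and Rpl35, which stand near its exit, read 24526 against 20633, at -0.25, and 21881 against 17896, at -0.29. Rpl4, Rpl19 and Rpl35 were all above 0 under quantile scaling, between 0.09 and 0.17. In the core of the subunit, Rpl8, which lies close to the peptidyl transferase centre, read 22241 against 17056, at -0.38, and 0.005 under quantile scaling. Rpl10a, the protein of the mobile stalk on the side where transfer RNA leaves, was among the 5 large subunit genes with the highest difference, at 24639 against 20786 and -0.25.

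The lowest large subunit genes were Rpl27a, Rpl6, Rpl41, Rpl7a and Rplp0. Rpl27a read 991 against 500, a log2 difference of -0.99 or 1.98-fold lower, and -1.03 under quantile scaling. This came from 1 probe set of moderate brightness, since its other probe set read 5.37 and 2.43, far below the floor. Rpl6 read 30309 against 20241, at -0.58, Rpl41, a very short basic protein at the contact between the subunits, 28768 against 20146, at -0.51, and Rpl7a 31240 against 22691, at -0.46. These 3 were between -0.15 and -0.02 under quantile scaling, so Rpl27a alone of the 4 kept its size there. The highest were Rpl14, at 962 against 1588 and 0.72, Rpl37, at 3770 against 3796 and 0.01, then Rpl12, Rpl10a and Rpl19. Rpl14 was the only ribosomal protein gene higher by more than 0.31 on either scale, at 0.68 under quantile scaling, and it too rested on 1 probe set of moderate brightness. The large subunit genes not given singly, which were Rpl7, Rpl13a, Rpl27, Rpl37a and Rpl38, lay between -0.43 and -0.25.

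In the small subunit, 18 of 19 measured genes were below 0 under trimmed-mean scaling. Rps2 and Rps3, which line the channel where messenger RNA enters, read 26769 against 18542, at -0.53, and 29884 against 22089, at -0.44. Rps15, in the head of the subunit near the decoding site, read 19323 against 15873, at -0.28. Under quantile scaling Rps2 stood at -0.14 and Rps3 and Rps15 both at 0.03. Rps7, another protein that binds Mdm2, read 28713 against 19772, at -0.54, and -0.11 under quantile scaling. Rps4x, which lies on the X chromosome, read 25978 against 19030, at -0.45, and -0.04 under quantile scaling.

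The lowest small subunit genes were Rps25, Rps7, Rps24, Rps2 and Rps10. Rps25, which is needed for some forms of internal initiation, read 3059 against 1994, at -0.62, and kept -0.63 under quantile scaling. Rps24 read 26759 against 18508, at -0.53, and Rps10, which lies in the head near the messenger RNA entry, 30807 against 21429, at -0.52. Both were closer to 0 under quantile scaling, at -0.14 and -0.06. The highest were Rps6, Rps15, Rpsa, Rps18 and Rps19. Rps6, the substrate of the S6 kinases downstream of mTOR, read 2916 against 3397, at 0.22, and 0.21 under quantile scaling, and it was the only small subunit gene above 0 under trimmed-mean scaling. Rpsa, also known as the laminin receptor, read 30213 against 24549, at -0.30. Rps18, of the head, read 29358 against 23661, at -0.31, and Rps19, the gene most often mutated in Diamond-Blackfan anaemia, 22201 against 17832, at -0.32. All 3 were above 0 under quantile scaling. The small subunit genes not given singly, which were Rps9, Rps14, Rps20, Rps26, Rps28 and Rps29, lay between -0.48 and -0.32, apart from Rps27, described next.

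Rps27, a small subunit gene with a zinc finger, read 556 against 390, at -0.51, and kept -0.55 under quantile scaling. It is on chromosome 3, where the 453 measured genes had a median of -0.47 on the trimmed-mean scale. The other chromosomes with measured ribosomal protein genes had medians between -0.16 and 0.07 over all their genes. The lowest of these was that of chromosome 5, which holds Rpl6 and Rplp0. With chromosome medians set to 0, Rpl6 stood at -0.43 and Rplp0 at -0.30. The part of the chromosome in the differences of Rps27, Rpl6 and Rplp0 was not tested. Diamond-Blackfan anaemia is an inherited failure of red cell production, mostly caused by loss of 1 copy of a ribosomal protein gene. Of the genes listed for it 11 were measured, and all 11 were below 0, against 50.0% of all genes, with a median of -0.40. Under quantile scaling 6 of the 11 were below 0, against 49.8% of all genes, with a median of -0.02.

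The large subunit genes were slightly less low than the small subunit genes, and whether the subunits differ cannot be tested with 1 array a group. The large subunit had a median of -0.35 over 20 genes and the small subunit -0.44 over 19, which left the large subunit 0.09 higher on the log2 scale. Under quantile scaling the medians were 0.04 and 0.00, a gap of 0.04, and after loess -0.02 and -0.09, a gap of 0.06. The gap had the same sign under each scaling, though the position of 0 did not. Among the 32 genes above 10000, the 16 of the large subunit ran from -0.58 to -0.25 and the 16 of the small subunit from -0.54 to -0.28, so the ranges overlapped almost wholly. The SD among those genes was 0.10 in the large subunit and 0.09 in the small subunit. The gap between subunits among them was 0.06 under trimmed-mean scaling and 0.04 under quantile scaling.

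**Figure D3:**
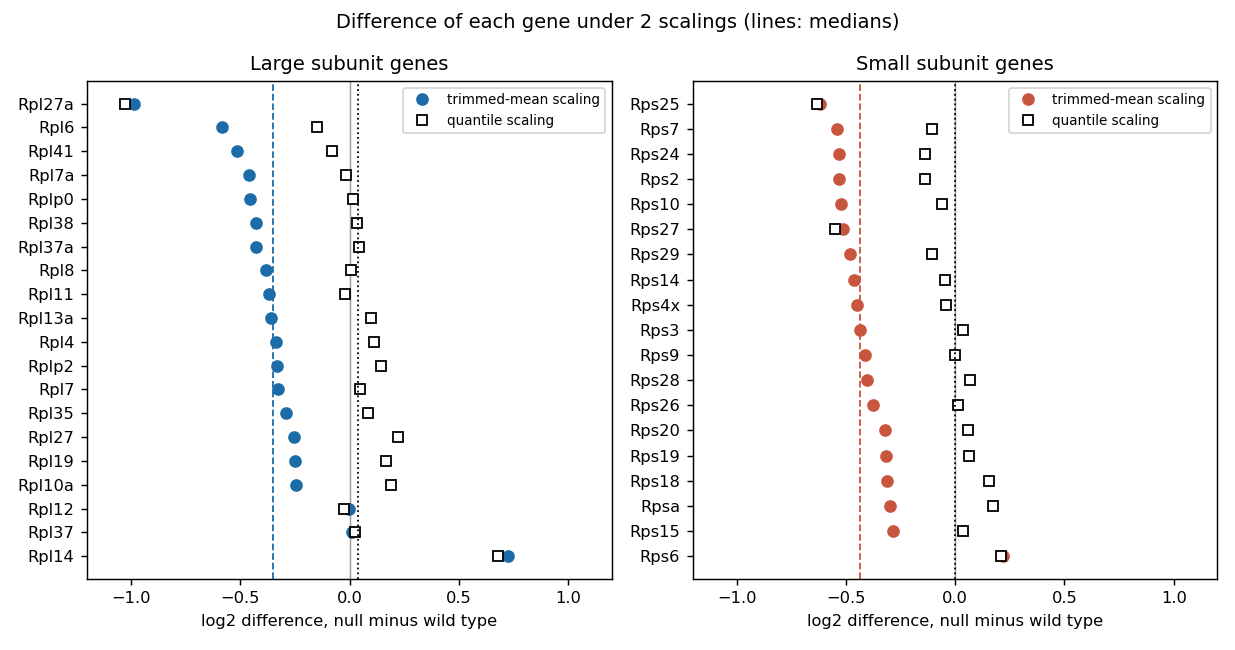
Log2 difference of the array labelled null minus the array labelled wild type for each of the 39 measured ribosomal protein genes, under trimmed-mean scaling (filled circles) and quantile scaling (open squares), with the median of each as a dashed and a dotted line. Under trimmed-mean scaling the medians are -0.35 in the large and -0.44 in the small subunit, and under quantile scaling they are 0.04 and 0.00. Rpl12, Rpl14, Rpl27a, Rpl37, Rps6, Rps25 and Rps27, the genes not above 10000 on both arrays, moved little between scalings.

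The 7 measured genes that did not exceed 10000 on both arrays were Rpl12, Rpl14, Rpl27a, Rpl37, Rps6, Rps25 and Rps27. They were the ones that varied most, from -0.99 to 0.72 with an SD of 0.58, and their median was -0.002. Each of the 7 rested on 1 measured probe set. Rps6 had another, at 42.5 against 81.3, which did not pass the floor on the first of these arrays.

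Probe sets of the same gene repeated this pattern. Of the 83 ribosomal protein probe sets that were measured on each array, 59 read above 10000 on both, and 57 of these were below 0, with a median of -0.37. The other 24 probe sets were below 0 in 12 cases and above 0 in 12, with a median of 0.004. In 11 genes that had probe sets of both kinds, the median of the dimmer ones was higher in 9. The exceptions were Rpl37a, by 0.03, and Rps9. Rps3 read 29884 against 22089 on its bright probe set and 1597 against 2413 on a dimmer one, which are log2 differences of -0.44 and 0.60.

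In 6 of the 17 genes with more than 1 measured probe set, the probe sets differed in sign and by more than 0.5, namely Rpl13a, Rpl41, Rps3, Rps10, Rps18 and Rps20. Rpl41 ran from -0.51 on the probe set at 28768 against 20146 to 0.56 on that at 857 against 1261. Rpl13a, which also takes part in translational silencing outside the ribosome, ran from -0.36 at 27820 against 21675 to 0.28 at 6651 against 8082. Rps10 had 6 measured probe sets from -0.52 to 0.17, Rps18 6 from -0.56 to 0.39 and Rps20 4 from -0.32 to 0.33. In each of these 6 genes the highest difference came from a probe set below 10000. Probe sets above 10000 also disagreed in sign in Rps10 and Rpl13a, which held the 2 of them above 0. That of Rps10 read 17462 against 19156, at 0.13, and that of Rpl13a 12489 against 12954, at 0.05.

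Rps9 held the largest single difference of any ribosomal protein probe set, and it was named after its values were seen. One of its probe sets, of a type that shares sequence with other transcripts, read 5130 against 309, which was 16.6-fold lower on the array labelled null. The other probe sets of the gene read 27264 against 20472 and 1241 against 1078, at -0.41 and -0.20. Only 1 of its 3 probe sets thus passed 2-fold. Of the 90 probe sets, 64 were of types that can match more than 1 transcript, with names ending in _a_at, _s_at or _x_at. These types were not split by whether the further transcript came from the gene itself or from elsewhere. Such a probe set represented 29 of the 40 genes. With such probe sets left out, 19 genes remained measured, with a median of -0.20. Of these, 13 were below 0, against 50.0% of all genes with every type of probe set kept. Rpl41, Rps3, Rps10 and Rps20 then stood on dimmer probe sets and turned to 0.25, 0.60, 0.17 and 0.31, while Rps15 moved to -0.60 and Rps24 to -0.09.

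Among the 109 probe sets that named a ribosomal protein gene together with other symbols, 102 passed the floor on each array. Their median was -0.35, with 82 below 0, and under quantile scaling it was 0.02, with 44 below 0. The 30 of them that named only a gene and its own pseudogenes had a median of -0.13, with 21 below 0, and 0.13 under quantile scaling, with 11 below 0. These 30 were thus less low than the 39 genes under trimmed-mean scaling. Rps3a1 and Fau, ribosomal protein genes whose symbols fall outside the naming pattern, read 35373 against 23488, at -0.59, and 18559 against 16339, at -0.18. Rps3a1 lies on chromosome 3, where the median of all measured genes was -0.47, and the part of the chromosome in its difference was not tested.

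Other genes of protein synthesis were set beside them. The 14 further genes with TOP messages, which encode elongation and initiation factors and related proteins, had a median of -0.17. Of these 14, 12 were below 0, against 50.0% of all genes. None was called at 2-fold, against 3.27% of all genes as lower and 4.26% as higher. Among them Eef1a1, which brings aminoacyl transfer RNA to the ribosome, read 34717 against 23081, at -0.59, and the translationally controlled tumour protein gene Tpt1 31195 against 21655, at -0.53. The poly(A)-binding protein gene Pabpc1 read 27095 against 20879, at -0.38. Of the 2 genes above 0, the elongation factor gene Eef2 read 16912 against 19635, at 0.22. The median of the 14 genes was 0.06 under quantile scaling, with 4 below 0, against 49.8% of all genes. Pabpc1 stood at 0.06 and Eef2 at 0.58 there, while Eef1a1 and Tpt1 stayed below 0, at -0.15 and -0.07.

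The 30 nucleolar genes that make and assemble ribosomes had a median of -0.19, with 24 below 0, against 50.0% of all genes. Under quantile scaling the median was -0.10, with 20 below 0, against 49.8%. Rrn3, the factor that brings RNA polymerase I to the ribosomal RNA genes, read 1220 against 650, at -0.91, and Nop14, a small subunit assembly factor, 2824 against 1771, at -0.67. Wdr12, which acts in large subunit assembly, read 4514 against 3127, at -0.53. Polr1c, a subunit shared by RNA polymerases I and III, went the other way at 2268 against 3215 and 0.50. These values moved by 0.04 or less under quantile scaling. Of the 30 genes, 0 reached 2-fold, against 3.27% of all genes as lower and 4.26% as higher. The 76 genes of the mitochondrial ribosome had a median of -0.09 on both scales. On each scale 47 were below 0, against 50.0% and 49.8% of all genes. They ran from Mrpl37, at 3152 against 1606 and -0.97, to Mrps34, at 1403 against 3013 and 1.10. On the trimmed-mean scale Mrps34 was the only one of the 76 past 2-fold, against 3.27% of all genes as lower and 4.26% as higher. No difference between these groups and the ribosomal protein genes was tested.

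**Figure D4:**
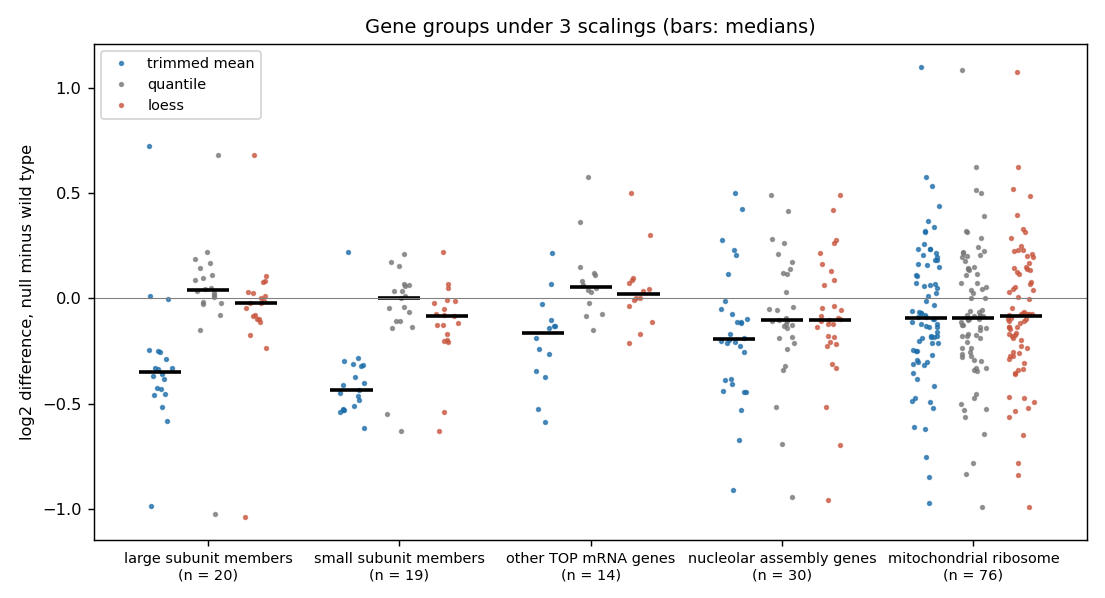
Log2 difference of the array labelled null minus the array labelled wild type for each measured gene (points) of the large subunit, the small subunit, the other TOP messages, the nucleolar genes and the mitochondrial ribosome, under trimmed-mean (blue), quantile (grey) and loess (red) scaling, with medians as black bars. The medians of both subunits, of the other TOP messages and of the nucleolar genes move towards 0 from the trimmed-mean to the other scalings. That of the nucleolar genes goes from -0.19 to -0.10 under quantile and loess scaling, and that of the mitochondrial ribosome stays between -0.09 and -0.08.

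Regulators of ribosomal protein messages did not lean one way, with 5 of 10 measured genes below 0, against 50.0% of all genes. Their median was 0.01, and -0.01 under quantile scaling. Eif4ebp1, the inhibitor of cap-dependent initiation that mTOR inactivates, read 3263 against 5787, at 0.83, while its target Eif4e read 10892 against 7494, at -0.54. Mtor itself read 3862 against 2610, at -0.57, and Myc 15998 against 11857, at -0.43. Under quantile scaling these became 0.86, -0.39, -0.56 and -0.17. None of these 10 genes reached 2-fold on the trimmed-mean scale, against 3.27% of all genes as lower and 4.26% as higher. Eif4e lies on chromosome 3, where the 453 measured genes had a median of -0.47. The part of the chromosome in the difference of Eif4e was not tested.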

How the data were processed

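Biotin-labelled cRNA, made from 6 µg of total RNA extracted with Trizol per the labels' protocols, was measured on 2 Affymetrix mouse arrays, 1 per genotype. The deposited values are MAS5 signal intensities per the submitters' processing notes; no MAS5 version is given in the sources used here. Symbols came from the platform table in GEO, and of 34945 with 1 symbol 34741 matched a RefSeq table of GRCm38.p6 by gene ID, with 0 symbols changed. Control probe sets (64) were left out after scaling. Intensities were set to the floor, then log2 was taken. Calculations used Python 3.11.15, pandas 2.3.3 and statsmodels 0.14.6 (loess span 0.3) and were tested on simulated data. Named genes were the 5 highest and 5 lowest of each subunit, the stalk, Mdm2-binding and X-linked genes, genes whose probe sets disagreed, and up to 4 examples of each other list. Genes and lists were chosen with earlier results of these data known. Detection calls were not used here. Alternatives covered scaling, floor, pseudocount, probe sets, members and chromosomes.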

Additional observations from a re-analysis of the deposited data

How the results depend on the processing

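A value counted as moved past 0.31, the probe set SD of a single gene, which is a coarse mark for a median. The gap between large and small subunit medians kept its sign under every alternative run, between 0.04 and 0.10. Under quantile normalization the medians of all ribosomal protein genes, of the large and of the small subunit were 0.024, 0.040 and 0, that of the other TOP messages was 0.056, and 15 genes were below 0. After loess they were -0.076, -0.024, -0.086 and 0.019. The count of ribosomal protein genes lower by 2-fold, 0 otherwise, was 1 under quantile normalization, loess, the mean of probe sets and chromosome medians set to 0. In that order, the count over all genes was 328 of 9425, 310 of 9418, 258 of 9317 and 287 of 9402. Of all genes, 779 were lower and 833 higher by 2-fold with the floor at the 25th percentile, and 83 and 118 at the 75th, where fewer genes were tested. Without shared probe sets, 13 of 19 ribosomal protein genes were below 0, and with each probe set on its own, 69 of 83 probe sets were. Over all genes the share below 0 was 50.0% in the main setting, and it was not computed under these alternatives. Taking each probe set on its own was chosen after seeing the data, as was subtracting the median of other bright genes, which left -0.16. Nucleolar and mitochondrial ribosome medians stayed below 0 under every alternative run. No paired analysis was possible because each group held 1 array, and leaving out a replicate was not possible either. Of the 26 named ribosomal protein genes, 20 moved by more than that under quantile normalization and 16 after loess. Quantile normalization turned the medians of all and of large subunit genes, loess only reduced them, and both turned that of the other TOP messages. The cause was not tested. Signal near background limits Rps16.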
